A study of Mus musculus with 9 samples.

Results

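Ketamine and prolonged wakefulness were set directly against each other in the anterior cingulate cortex of the mouse, with each treatment's arrays compared with those of the other. Every gene measured on the arrays belongs to this comparison. Probe sets with 1 gene symbol were kept, the brightest was taken for each gene, and all 22180 genes of 22180 were compared on 6 of the study's 9 arrays. The ketamine group held 3 C57BL/6J mice injected intraperitoneally with 3 mg/kg of ketamine at ZT5, where zeitgeber time (ZT) counts hours from lights on. The sleep-deprived group held 3 C57BL/6J mice housed in a circular cage, in which a slowly turning bar kept them awake between ZT0 and ZT12, and no injection is on their labels. The 3 remaining arrays came from C57BL/6J mice injected with saline at ZT5, and they are given beside the comparison. Tissue of all groups was taken at ZT13. The groups compared thus differed at least in the drug, the injection, the hours awake and the cage with its turning bar. They also differed in the time to harvest, which followed an injection at ZT5 or wakefulness that ended at ZT12. These cannot be told apart. How long the ketamine-treated mice slept is not given in the sources used here.

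Ketamine blocks the NMDA class of glutamate receptor, which passes calcium when a neuron is depolarised while glutamate is bound. Both a low dose of ketamine and a night without sleep are known for a fast antidepressant action. Calcium entry and MAP kinase signalling drive immediate-early genes, first transcription factors such as those of the Fos and Egr families and then effectors that act at synapses. Prolonged wakefulness is known to raise such activity genes, chaperones and targets of glucocorticoids in the cortex, while genes of sterol synthesis are known to be higher during sleep.

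No gene passed the test. In limma's fit 0 of 22180 genes had an adjusted p under 0.05, a background of 0%, and the smallest adjusted p was 0.172. At an unadjusted p under 0.05 there were 970 genes lower after ketamine, or 4.37% of all genes, and 1132 genes higher, or 5.1%. All 3 ketamine arrays lay below all 3 sleep-deprived arrays for 1229 genes, or 5.54%, and above them for 1005 genes, or 4.53%. The median difference over all genes was -0.012 and the median standard error 0.109. Differences are ketamine minus sleep deprivation on the scale of log2(intensity + 16), given ± SE (n = 3 arrays in each group). The offset of 16 makes differences of dim genes smaller than they are. "Lower" and "higher" below describe group means and are not calls. The comparison's p-values rest on the spread between arrays that the titles call biological replicates. Without sleep-deprived array 3 the fit called 214 genes (67 lower and 147 higher after ketamine), and without sleep-deprived array 2 it called Lcn2 alone.

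The arrays differed in how bright and dim genes lay against each other. Of the 7393 brightest genes 78.3% were lower after ketamine, against 47.9% of the 7393 in the middle and 32.7% of the 7394 dimmest. Median differences in these groups were -0.07, 0.01 and 0.07. Against the saline mean, the brightest genes had medians of 0.01, -0.07 and -0.15 on the ketamine arrays and of -0.03, 0.10 and -0.06 on the sleep-deprived arrays. After quantile normalization, which gives all arrays the same distribution, 50% of the brightest and 49% of the dimmest genes were lower. The medians of most gene lists below are therefore also given after quantile normalization. For lists of bright genes, the 78.3% is a nearer background for counts of lower members than the 53% of all genes. Array numbers in the labels run by group, so array order and group cannot be told apart. Array medians lay between 97.7 and 106.2, and arrays correlated with each other at 0.9758 to 0.9947 over genes.

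**Figure D1:**
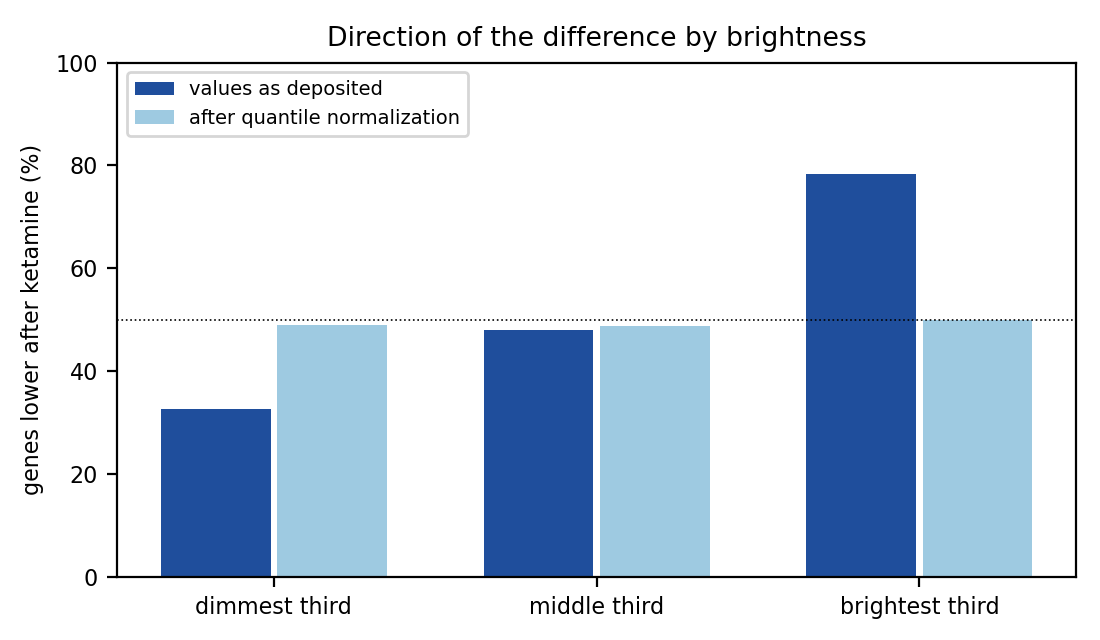
Share of genes with a lower mean after ketamine than after sleep deprivation, in percent, for 3 groups of genes split by their mean level over all 9 arrays. Dark bars use the values as deposited, in which 78.3% of the brightest genes were lower, and pale bars those after quantile normalization, in which the shares lie between 48.7% and 50%. The dotted line marks an even split.

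Among genes above the median level, those with the smallest p were higher in sleep-deprived than in ketamine-treated cortex. Several code for proteins that act at synapses or in kinase signalling. At an unadjusted p under 0.05, 970 of all genes were lower after ketamine and 1132 higher. Of the 7393 brightest genes, 453 were lower and 53 higher at this threshold. After quantile normalization these counts of bright genes were 272 and 246. How far the direction of the leading genes follows from their brightness was not tested. For each of the 15 leading genes lower after ketamine, all 3 ketamine arrays lay below all 3 sleep-deprived arrays. Their differences lay between -0.76 and -0.43, with adjusted p between 0.172 and 0.293. Of these 15 genes, 13 had an adjusted p under 0.05 with an offset of 64, 13 with limma-trend, 9 with array weights, 4 without the dimmest genes and 14 without sleep-deprived array 3. All other alternatives called 0 of the 15. They include quantile normalization, the 6 treated arrays alone, and leaving out ketamine array 2 or ketamine array 3. The smallest limma adjusted p of any gene in these was 0.216, 0.446, 0.552 and 0.78. They were picked by p among genes above the median level, so this separation is a description. The saline mean lay between the groups for 13 of the 15 and below both for 2, Sgsm1 and Serinc2. It was nearer to ketamine than to sleep deprivation for 12 of the 15, against 42.5% of all genes.

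Nptx2, which codes for a neuronal pentraxin that gathers AMPA receptors at synapses, read 316, 407 and 310.3 on the sleep-deprived arrays, 193, 197 and 194 on the ketamine arrays and 209.5, 204 and 258 on the saline arrays. Its difference was -0.76 ± 0.12 (adjusted p = 0.172), so that the mean was 1.7 times as high after sleep deprivation on the offset scale. The ketamine arrays were close to each other and below the saline arrays, while each sleep-deprived array stood above all others.

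Cdkn1a, coding for the cell cycle inhibitor p21, gave 568, 633 and 440.0 after sleep deprivation and 351, 296 and 306 after ketamine, with saline at 353, 342 and 380.3. The difference was -0.74 ± 0.12 (adjusted p = 0.172). Saline and ketamine arrays overlapped, and the sleep-deprived arrays were above both.

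Homer1, the gene of a postsynaptic scaffold protein with an activity-induced short form, read 1453, 1550.1 and 1363 in sleep-deprived and 1095, 919 and 899.6 in ketamine-treated cortex. Saline arrays read 1232, 1399.5 and 1139.8, and thus overlapped the sleep-deprived range but not the ketamine range. The difference was -0.58 ± 0.11 (adjusted p = 0.241), made up of -0.37 ± 0.11 against saline on the ketamine side and 0.21 ± 0.11 on the sleep-deprived side. These comparisons with saline share arrays with the main one and with each other.

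Secreted proteins formed a part of the leading genes. Scg2, the gene of secretogranin II, a precursor of neuropeptides in dense-core vesicles, read 1060.0, 1229 and 1132 after sleep deprivation against 876, 764 and 772 after ketamine and 869, 864 and 874 after saline. Vgf, whose product is a growth factor-induced neuropeptide precursor, read 871, 895 and 777 against 614, 630.1 and 511 and 623, 578 and 654. For both, ketamine and saline arrays overlapped and the sleep-deprived arrays were higher (-0.50 ± 0.09 for Scg2 and -0.53 ± 0.10 for Vgf). Cbln4, coding for a cerebellin that organises synapses, differed by -0.68 ± 0.13, and Adamts1, a gene of a matrix protease, by -0.48 ± 0.10.

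The rest of the leading genes reached from vesicle trafficking to the cytoskeleton. Sorcs3, a sorting receptor of neurons, differed by -0.50 ± 0.10, Synj2, a phosphoinositide phosphatase, by -0.51 ± 0.10, and Sgsm1, a regulator of small GTPases, by -0.57 ± 0.10. Mical2, which oxidises actin, had the smallest difference of the 15 at -0.43 ± 0.09, and the formin gene Fmnl1 was at -0.53 ± 0.11. Serinc2 was at -0.55 ± 0.10 and the deubiquitinase gene Otub2 at -0.48 ± 0.10. For Sgsm1 the sleep-deprived arrays read 772, 773 and 637, while ketamine at 496, 486 and 466 and saline at 481, 467 and 497 overlapped.

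**Figure D2:**
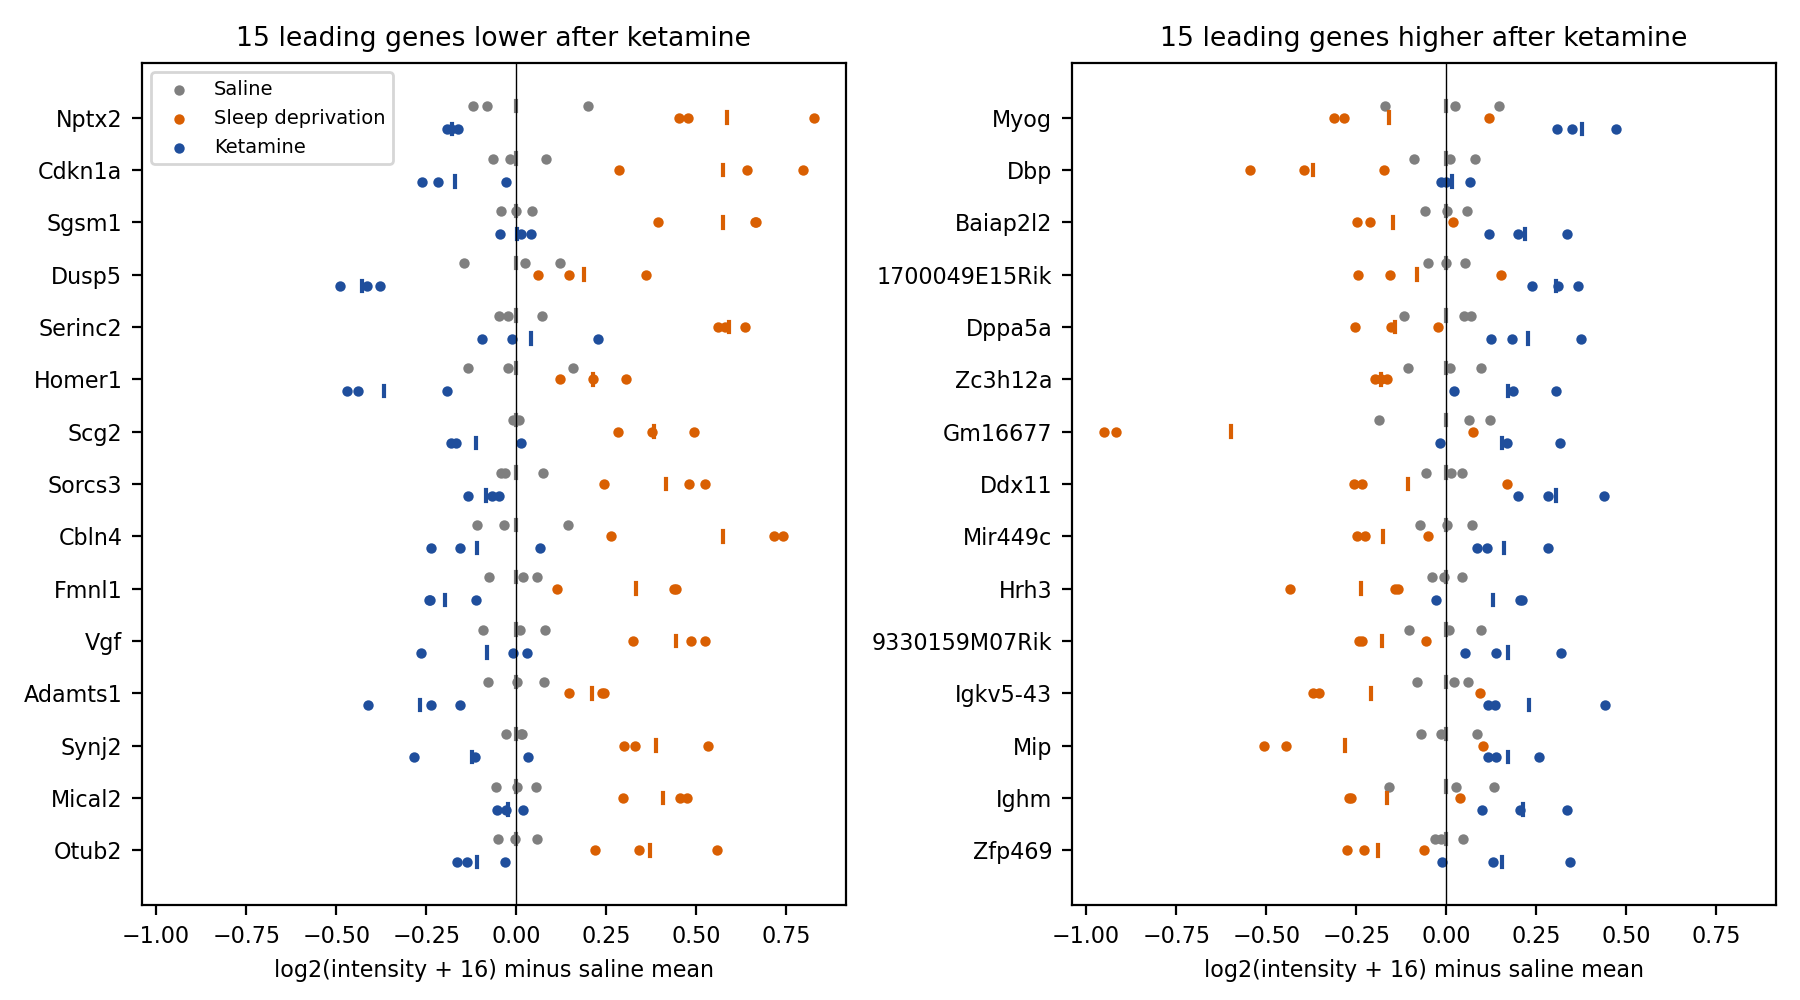
Level of the 15 leading genes on each side, as log2(intensity + 16) minus the gene's saline mean, with 1 point per array, 3 arrays per group and a tick for each group mean. On the left all sleep-deprived points lie right of all ketamine points, with Nptx2 at the top at a difference of -0.76. On the right the sleep-deprived points lie left of the ketamine points, except for Gm16677, where the groups overlap.

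Activity transcription factors were mostly lower after ketamine than after sleep deprivation. Of 23 measured members 21 had a lower mean, against 53% of all genes, and the median difference was -0.21, or -0.12 after quantile normalization. At an unadjusted p under 0.05 there were 10 lower and 0 higher, beside 4.37% and 5.1% of all genes, and 0 passed limma's adjusted threshold. All ketamine arrays lay below all sleep-deprived arrays for 11 of the 23, beside 5.54% of all genes. The saline mean was above both groups for 11 members and between them for 11.

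In this list the ketamine arrays stood further from saline than the sleep-deprived arrays did. Against the saline mean, the list's median was -0.25, -0.27 and -0.15 on the ketamine arrays and -0.04, 0.12 and -0.07 on the sleep-deprived arrays, of which array 2 was the highest. Csrnp1, a nuclear protein gene of the immediate-early class, read 174, 202 and 146 after sleep deprivation and 134, 96.7 and 119 after ketamine (-0.52 ± 0.13, adjusted p = 0.36), with saline at 145, 176 and 150.2. Nr4a1, an orphan nuclear receptor induced by activity, read 1726, 2014 and 1844 against 1375, 1328 and 1642 (-0.36 ± 0.11), and its saline arrays at 1762, 2051 and 1718 overlapped the sleep-deprived ones. Fosl2, a partner of Jun proteins in AP-1, differed by -0.36 ± 0.10, Crem, which binds cAMP response elements, by -0.30 ± 0.10, and the zinc-finger gene Klf4 by -0.29 ± 0.09.

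Not every classical factor followed. Fos (-0.04 ± 0.10) and Npas4 (0.07 ± 0.11), chosen here after their values were seen, were nearly level between the treatments. Fos was at -0.42 after ketamine and -0.39 after sleep deprivation against saline, and Npas4 at -0.29 and -0.36. For both the saline mean was thus above both treated groups, the arrays of the treated groups overlapped, and the sign of both differences turned under some alternatives.

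Effectors that neurons induce with activity included several of the leading genes. Of 26 measured members 22 were lower after ketamine, with a median of -0.20, or -0.17 with 21 of 26 lower after quantile normalization. At an unadjusted p under 0.05 there were 12 lower (46.2%) and 0 higher, beside 4.37% and 5.1% of all genes, with 0 adjusted calls. Among the 7393 brightest genes, 453 were lower and 53 higher at this threshold. For 13 members all ketamine arrays lay below all sleep-deprived arrays, beside 5.54% of all genes. Nptx2, Homer1, Scg2, Sorcs3 and Vgf, described above, were the first 5 by p. Bdnf, the gene of brain-derived neurotrophic factor, which supports synaptic plasticity, read 169, 209.7 and 149 after sleep deprivation, 132, 99.7 and 122 after ketamine and 142, 149 and 142 after saline. Its difference was -0.52 ± 0.12 (adjusted p = 0.337), with -0.27 ± 0.12 on the ketamine side of saline and 0.25 ± 0.12 on the sleep-deprived side. Btg2, an antiproliferative gene named after its value was seen, was the member furthest to the other side at 0.24 ± 0.12.

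The effector list depended on the sleep-deprived arrays. Its median against the saline mean was -0.07, 0.26 and 0.013 on sleep-deprived arrays 1 to 3 and -0.06, -0.23 and -0.21 on the ketamine arrays, so sleep-deprived array 1 and ketamine array 1 were level with each other. The list's median difference was -0.34 without sleep-deprived array 1 and -0.31 without ketamine array 1. Over all 20 alternatives it ran from -0.336 to -0.14.

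Feedback genes of MAP kinase signalling, among them phosphatase genes that restrain these kinases, were lower after ketamine in 14 of 15 members. The list also holds other signalling genes, such as Sik1 and Rasd1. The median was -0.27, or -0.23 with 12 of 15 lower after quantile normalization. There were 9 members lower (60%) and 1 higher (6.67%) at an unadjusted p under 0.05, with 0 adjusted calls. Of all genes 4.37% were lower and 5.1% higher at this threshold. Dusp5, a phosphatase gene for nuclear ERK, read 228, 285 and 244 after sleep deprivation, 165, 160.1 and 151 after ketamine and 239, 222 and 196 after saline (-0.62 ± 0.10, adjusted p = 0.172). Ketamine arrays were below all others, and saline overlapped sleep deprivation.

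The phosphatase genes Dusp4 and Dusp6 were lower after ketamine as well. Dusp4 read 449, 462 and 364 against 279, 297 and 288 (-0.53 ± 0.11), and Dusp6 read 1119.5, 1270.5 and 1096 against 931, 815 and 885 (-0.40 ± 0.09). Sik1, a kinase induced by cAMP, was at -0.48 ± 0.12, of which -0.42 ± 0.12 lay between ketamine and saline. Rasd1, a small G protein gene induced by dexamethasone, was at -0.55 ± 0.13 with the other placement of saline, the difference from it being -0.03 ± 0.13 for ketamine and 0.51 ± 0.13 for sleep deprivation. Dusp2, named after its value was seen, was the member on the other side (0.28 ± 0.09).

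The cAMP response element TGACGTCA, to which CREB binds, was looked for on both strands in RefSeq promoters (GRCm38.p6, 250 bases before to 50 after each gene's start). It was in 4 of 26 promoters of effector genes (15.4%), 2 of 12 of feedback genes (16.7%) and 1 of 27 of the transcription factors (3.7%), beside 1.79% of all 32851 promoters. The AP-1 site TGANTCA was in 3.7% of promoters of transcription factors, 3.85% of effectors and 0% of feedback genes, beside 7.81% of all. A gene can have several promoters, 330 of 415 measured list genes had at least 1 in the table, and a match describes letters only. The element of Scg2, whose arrays separated as given above, is shown in capitals in the 150 bases before its start, chr1:79440027-79440176, minus strand, printed 5′ to 3′:

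Scg2: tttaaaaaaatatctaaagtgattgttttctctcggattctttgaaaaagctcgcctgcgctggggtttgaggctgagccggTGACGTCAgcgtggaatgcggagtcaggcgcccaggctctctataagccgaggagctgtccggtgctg

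Genes that respond to glucocorticoids, the adrenal stress steroids, were lower after ketamine in 22 of 26 measured members. The median difference was -0.12, or -0.07 with 20 of 26 lower after quantile normalization. At an unadjusted p under 0.05 there were 7 lower (26.9%, beside 4.37% of all genes) and 0 higher, with 0 adjusted calls. The list's median was 0.05, 0.14 and 0.04 on the sleep-deprived arrays and -0.016, -0.10 and -0.07 on the ketamine arrays against the saline mean, with no overlap of the treated groups. Without ketamine array 2 the median difference was -0.07, with 24 of 26 lower. Cdkn1a, also a target of other pathways, led the list by p.

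Fkbp5, whose product is a co-chaperone of the glucocorticoid receptor, read 173, 178 and 156 after sleep deprivation and 125, 123 and 119 after ketamine, with saline at 143, 137 and 123. It differed by -0.42 ± 0.09 (adjusted p = 0.31), and only the sleep-deprived arrays stood clear of the saline range. Il1r1, the interleukin 1 receptor gene, was at -0.36 ± 0.10 and Sult1a1, a sulfotransferase gene, at -0.35 ± 0.10.

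Lcn2, the gene of the iron-binding lipocalin 2, had the widest value of any gene named here and the least even one. It read 566, 70.2 and 503 on sleep-deprived arrays 1, 2 and 3, 62.1, 61.3 and 75 on the ketamine arrays and 124, 61.2 and 78.6 on the saline arrays. Sleep-deprived arrays 1 and 3 were several-fold above all others, and array 2 lay within the ketamine range. The fit gave -1.86 ± 0.51 (adjusted p = 0.374), and without sleep-deprived array 2 it gave -2.75 with an adjusted p of 0.000144.

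Acute-phase genes were lower after ketamine in 8 of 14 members, with a median of -0.04 (-0.06 after quantile normalization). The median was -0.19, with 7 of 9 lower, when the dimmest genes were left out, and it turned to 0.013 without sleep-deprived array 1. There were 4 lower (28.6%) and 1 higher (7.14%) at an unadjusted p under 0.05, with 0 adjusted calls. These shares stand beside 4.37% and 5.1% of all genes. Serpina3n, a protease inhibitor gene of reactive astrocytes, read 356, 392 and 355 after sleep deprivation against 272, 273 and 263 after ketamine and 274, 226 and 262 after saline (-0.43 ± 0.10, adjusted p = 0.322). Saline was below both, and the difference from it was 0.08 ± 0.10 for ketamine and 0.51 ± 0.10 for sleep deprivation. Cp, coding for the copper carrier ceruloplasmin, was at -0.45 ± 0.11, Osmr, the oncostatin M receptor gene, at -0.37 ± 0.10, and Saa3, a serum amyloid gene, at 0.36 ± 0.13.

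The hexamer TGTTCT, to which the glucocorticoid receptor binds, was in 6 of 33 promoters of glucocorticoid-responsive genes (18.2%) and in 19% of all promoters.

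Heat shock genes, most of whose products refold proteins in the cytosol, were lower after ketamine in 19 of 23 measured members. The median was -0.15, or -0.10 with 19 of 23 lower after quantile normalization. At an unadjusted p under 0.05, 6 were lower (26.1%, beside 4.37% of all genes) and 0 higher, with 0 adjusted calls. Per array the list's median ran -0.06, 0.18 and 0.05 for sleep-deprived arrays 1 to 3 and 0.00, -0.13 and -0.21 for ketamine arrays 1 to 3 against the saline mean. The treated groups overlapped on this measure, since sleep-deprived array 1 was below ketamine array 1. Without sleep-deprived array 2 the median difference was -0.08, with 19 of 23 lower. The list also holds Hspd1 and Hspe1, whose products form the chaperonin of mitochondria.

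Hspa1b, an inducible gene of the HSP70 class of chaperones, read 171, 168 and 161 after sleep deprivation, 120.5, 88.1 and 113 after ketamine and 134, 130.0 and 99.3 after saline. Sleep-deprived arrays were the highest of all 9, and ketamine overlapped saline (-0.58 ± 0.12, adjusted p = 0.293). Its near-identical neighbour Hspa1a can share signal with it, so the value cannot be given to 1 copy with certainty. Hsph1, whose product helps that class exchange nucleotides, read 1424, 1568 and 1663 against 1357, 1105 and 1013 (-0.42 ± 0.12), with the 3 ketamine arrays unevenly spread. Chordc1, an HSP90 partner, was at -0.39 ± 0.11, Dnajb5 at -0.33 ± 0.10, and Hspe1 at -0.24 ± 0.10.

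The heat shock element core GAANNTTC was in 12 of 27 promoters of the list (44.4%), beside 7.86% of all promoters on either strand. The 1 copy before the start of Hspa1b is in capitals in the 150 bases at chr17:34959239-34959388, minus strand, and it begins 104 bases before the start:

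Hspa1b: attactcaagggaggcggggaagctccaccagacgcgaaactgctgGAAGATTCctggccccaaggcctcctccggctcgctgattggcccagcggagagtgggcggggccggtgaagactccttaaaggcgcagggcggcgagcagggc

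Chaperones of the endoplasmic reticulum and genes of its stress response were lower in 19 of 22 members. The median was -0.14 (-0.07 after quantile normalization, with 18 lower). Without sleep-deprived array 2 the median was -0.06, with 17 of 22 lower. There were 4 lower (18.2%, beside 4.37% of all genes) and 0 higher at an unadjusted p under 0.05, with 0 adjusted calls. Calr, coding for the calcium-binding chaperone calreticulin, read 2082, 2389 and 2168 after sleep deprivation against 1867, 1787 and 1820.0 after ketamine (-0.27 ± 0.09), and its saline arrays read 1964, 1826 and 1818. Pdia3, a disulfide isomerase gene, was at -0.27 ± 0.10, Hsp90b1 at -0.23 ± 0.09, and Atf6, a sensor of unfolded proteins, at -0.23 ± 0.09. Hyou1, a large stress chaperone of the same compartment, was at -0.17 ± 0.09. Their groups did not overlap, but each adjusted p was 0.425 or higher. The element TGACGTGG of the unfolded protein response was in 0 of 19 promoters of the list and in 0.676% of all.

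**Figure D3:**
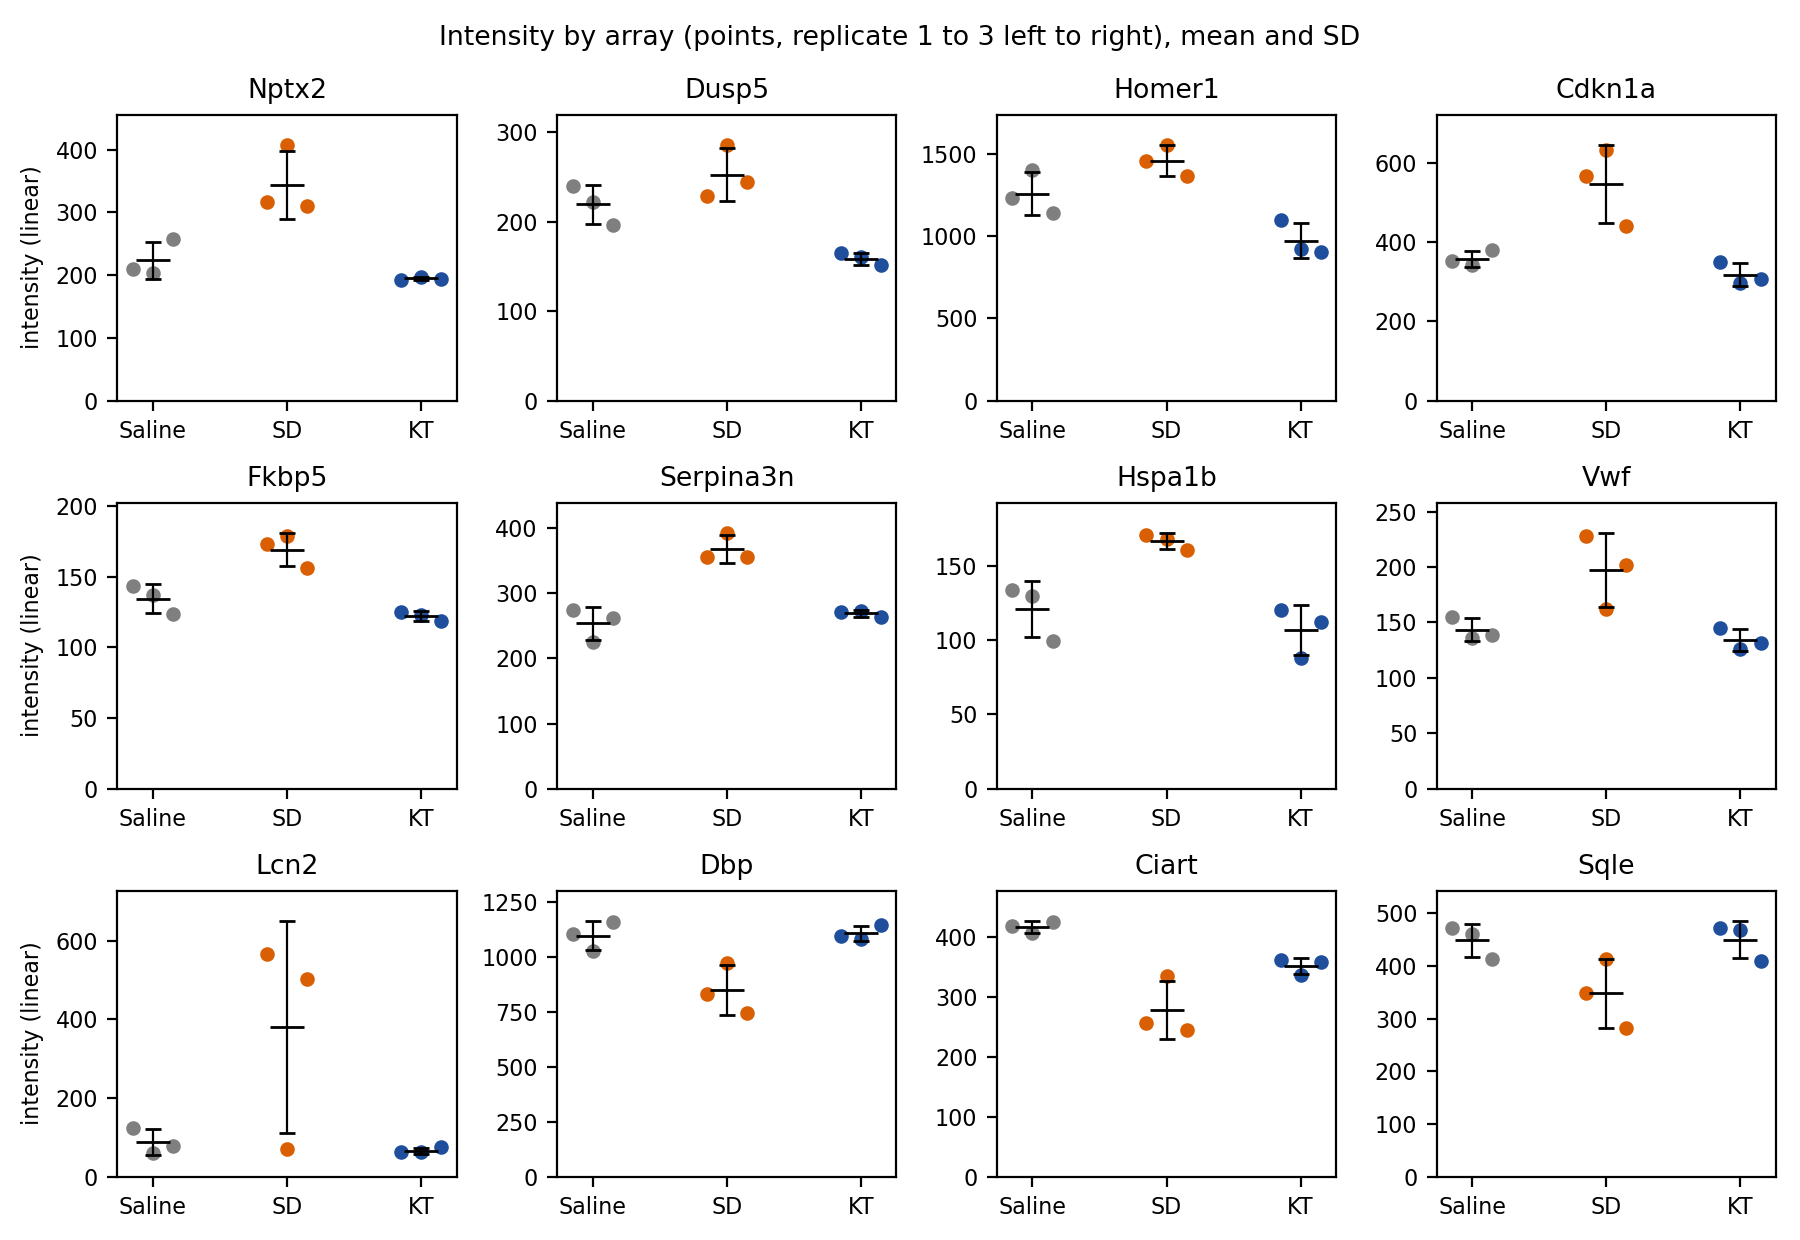
Linear intensity of 12 genes on each array, with replicates 1 to 3 from left to right, and the mean and SD of each group of 3 (SD on the axis stands for sleep deprivation, KT for ketamine). Each panel has its own axis from 0. Nptx2 to Vwf are higher on the sleep-deprived arrays than on the ketamine arrays, Lcn2 is high on sleep-deprived arrays 1 and 3 only, and Dbp, Ciart and Sqle have their lowest means after sleep deprivation.

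The core clock, a loop in which CLOCK and its partners switch on their own repressors, did not move one way. Of 15 measured members 10 were lower after ketamine and the median was -0.06, which turned to 0.02 after quantile normalization and to 0.009 without sleep-deprived array 2. There was 1 lower and 1 higher (6.67% each) at an unadjusted p under 0.05, with 0 adjusted calls. These shares are near the 4.37% and 5.1% of all genes. For 9 of the 15 the saline mean was above both treated groups.

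Ciart, a repressor of CLOCK and its partner, read 256, 335 and 246 after sleep deprivation, 361, 336 and 359 after ketamine and 419, 407 and 426 after saline. The ketamine arrays were above the sleep-deprived ones, by little against sleep-deprived array 2, and both were below saline (0.33 ± 0.11, adjusted p = 0.427). Arntl, which codes for the partner BMAL1, went the other way, with 673, 793 and 673 after sleep deprivation, 648, 565 and 520.4 after ketamine and 629.6, 619.9 and 622 after saline (-0.30 ± 0.10). Clock was at -0.14 ± 0.09 and Npas2, a stand-in for Clock in the forebrain, at -0.14 ± 0.10.

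Among the repressors, Per1 was at -0.08 ± 0.11, Per3 at -0.02 ± 0.09, Cry1 at -0.06 ± 0.10 and Cry2 at -0.06 ± 0.10, all with overlapping arrays. Bhlhe40 was at -0.007 ± 0.09 and its relative Bhlhe41 at 0.12 ± 0.09. The nuclear receptor Nr1d1, which represses Arntl, was at 0.18 ± 0.10 with arrays that did not overlap, and Nr1d2 at 0.03 ± 0.09. Of the opposing receptors, Rora was at -0.15 ± 0.11 and Rorb at 0.24 ± 0.13. Csnk1e, a kinase gene that marks PER proteins for decay, was at -0.11 ± 0.10. Per3, Bhlhe40, Cry1, Cry2 and Nr1d2 changed sign under at least 1 of the alternatives tried.

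Clock output genes gave 5 of 10 lower with a median of -0.03 (0.04 after quantile normalization). There was 1 lower (Cdkn1a) and 1 higher (Dbp) at an unadjusted p under 0.05, with 0 adjusted calls. Each is 10% of the list, beside 4.37% and 5.1% of all genes. Dbp, a transcription factor gene driven directly by CLOCK, read 829.5, 971 and 746 after sleep deprivation, 1094, 1084 and 1146 after ketamine and 1103, 1028 and 1159 after saline. Ketamine and saline overlapped and sleep deprivation was lower (0.39 ± 0.10, adjusted p = 0.374). Usp2, a deubiquitinase gene with a strong daily rhythm, was at 0.18 ± 0.09, Nampt, which makes NAD precursors, at -0.25 ± 0.13, and the cell cycle kinase gene Wee1 at -0.18 ± 0.11.

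The E-box CACGTG, to which CLOCK binds, was in 4 of 22 promoters of core clock genes (18.2%) and 3 of 14 of output genes (21.4%), beside 7.15% of all. It was also in 19.2% of promoters of the activity-induced effectors. Ciart, the clock gene with the smallest p, had 3 copies, which begin 116, 58 and 44 bases before its start and stand in capitals in chr3:95882229-95882378, minus strand:

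Ciart: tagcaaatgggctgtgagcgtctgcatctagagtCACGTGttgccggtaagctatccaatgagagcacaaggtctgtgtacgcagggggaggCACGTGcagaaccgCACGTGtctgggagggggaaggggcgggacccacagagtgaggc

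Genes of cholesterol synthesis were mostly higher after ketamine. Of 19 measured members 15 were higher than after sleep deprivation, with a median of 0.16, and 0.22 after quantile normalization. Without sleep-deprived array 1 the median was 0.10, with 4 of 19 lower. There were 0 lower and 3 higher (15.8%, beside 5.1% of all genes) at an unadjusted p under 0.05, with 0 adjusted calls. The saline mean was nearer to ketamine for 12 of the 19. Against the saline mean the list's median was -0.23, 0.05 and -0.23 on the sleep-deprived arrays and 0.013, 0.05 and -0.12 on the ketamine arrays. Sleep-deprived array 2 was level with the ketamine arrays, and the other sleep-deprived arrays were lower than all.

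Sqle, coding for squalene epoxidase, read 349, 413 and 282 after sleep deprivation, 472, 469 and 410.1 after ketamine and 472, 460.2 and 414 after saline (0.37 ± 0.12, adjusted p = 0.437). Hmgcs1, which makes HMG-CoA, the substrate of the rate-limiting step, read 1609, 2027 and 1628 against 2158, 2225 and 2015, with saline at 2159.9, 2054 and 2092 (0.29 ± 0.10). In both genes sleep-deprived array 2 overlapped the ketamine range. Mvd (0.20 ± 0.09) and Mvk (0.18 ± 0.09), of the mevalonate steps, did not overlap between groups, and Fdps, coding for farnesyl diphosphate synthase, was at 0.26 ± 0.13.

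The sterol regulatory element TCACNCCAC was in 1 of 18 promoters of the list (5.56%), that of Hmgcs1, and in 1.24% of all. It begins 137 bases before the start and is in capitals in chr13:119690201-119690350, plus strand:

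Hmgcs1: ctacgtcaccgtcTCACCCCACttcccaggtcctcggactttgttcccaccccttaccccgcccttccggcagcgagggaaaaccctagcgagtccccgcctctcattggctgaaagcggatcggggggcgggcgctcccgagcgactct

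Genes that act in the BDNF and mTOR pathways or control translation are known for their part in the synaptic action of ketamine. Of these 16 of 23 were lower (69.6%, beside 78.3% of the brightest genes), with a median of -0.05. After quantile normalization 12 of 23 were lower, with a median of -0.003. At an unadjusted p under 0.05, 3 were lower (13%, beside 4.37% of all genes), namely Vgf, Bdnf and Ddit4. There were 0 higher, and 0 passed after adjustment. Vgf and Bdnf were already described with the activity-induced effectors, so they are not separate results here. Ddit4, an inhibitor of mTOR complex 1 that stress induces, was at -0.34 ± 0.14 with overlapping arrays. Ntrk2, the BDNF receptor gene, was at -0.15 ± 0.09, and Rheb, a small GTPase that activates mTOR, at -0.14 ± 0.09.

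NMDA receptor subunits, the targets of ketamine, differed little. Of 6 measured subunits 5 were lower after ketamine, with a median of -0.12 (-0.09 after quantile normalization, -0.07 without sleep-deprived array 1), and 0 were below an unadjusted p of 0.05 in either direction or passed adjustment. Grin2b, the subunit of slow receptor currents, read 2528, 2525 and 2304 after sleep deprivation against 2339, 2225 and 2128 after ketamine (-0.14 ± 0.09), and Grin2a was at -0.14 ± 0.09. Grin2c was at -0.17 ± 0.10, Grin2d at -0.11 ± 0.10, Grin3a at -0.014 ± 0.11 and Grin3b at 0.23 ± 0.11. All 6 had overlapping arrays, and Grin3a changed sign under some alternatives.

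Other receptor families gave medians nearer to 0. AMPA and kainate receptor genes with their auxiliary subunits were at -0.03 (7 of 12 lower) and turned to 0.04 after quantile normalization (4 of 12 lower). Cacng2, coding for stargazin, which carries AMPA receptors to synapses, had the smallest p of them at -0.20 ± 0.09. GABA-A receptor subunits were at 0.03 (5 of 12 lower), with 0.08 after quantile normalization. Gabra6, a subunit gene known mainly from cerebellar granule cells, was dim, at 19.4, 18.1 and 25.9 and 29.7, 29.8 and 30.4 (0.31 ± 0.10).

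Serotonin receptors had a median of 0 with 7 of 14 lower, and 2 members stood out. Htr5b read 131, 156 and 148 after sleep deprivation, 103, 97 and 121 after ketamine and 110.3, 112 and 106 after saline (-0.39 ± 0.10). Htr2a, the receptor of classical hallucinogens on cortical pyramidal cells, read 982, 1053 and 806 against 792, 698 and 749, with saline at 678, 750.5 and 878 (-0.33 ± 0.12). Both were lower at an unadjusted p under 0.05 with no overlap of the treated groups, 0 members were higher, and neither passed adjustment. These 2 are 14.3% of the list, beside 4.37% of all genes. Htr1b was at -0.21 ± 0.10 with saline below both groups.

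Adenosine signalling, through which sleep pressure is known to act, had a median of 0.019 with 4 of 9 measured members lower (0.05 after quantile normalization). The receptor genes Adora1, Adora2a and Adora2b, and Entpd2, were on the list but not measured, so the list does not describe them. Ada, coding for adenosine deaminase, which removes adenosine, read 52.1, 66.6 and 70.2 after sleep deprivation and 75.5, 79.1 and 90.2 after ketamine (0.31 ± 0.11). It was the 1 member under an unadjusted p of 0.05, or 11.1% of the list beside 5.1% of all genes. Nt5e, which forms adenosine outside cells, was at 0.12 ± 0.10.

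Genes of glucose, lactate and glycogen handling were lower in 16 of 21 members (76.2%, beside 78.3% of the brightest genes). The median was -0.04 (-0.02 after quantile normalization, with 11 lower). Without sleep-deprived array 1 the median was -0.10, with 20 of 21 lower. There were 3 lower (14.3%, beside 4.37% of all genes) and 0 higher at an unadjusted p under 0.05, with 0 adjusted calls. Pfkfb3, an activator of glycolysis, read 239, 298 and 267 against 222, 211 and 196, with saline at 227, 238 and 232 (-0.33 ± 0.10). Slc2a1, the glucose transporter gene of the blood-brain barrier and astrocytes, was at -0.21 ± 0.09, and Slc16a1, a lactate transporter gene, at -0.23 ± 0.10. Cirbp, a cold-inducible RNA-binding gene, was at 0.40 ± 0.18, with 154, 243 and 185 after sleep deprivation, 317, 230.4 and 229 after ketamine and 308, 199 and 262 after saline. All 3 groups overlapped there.

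**Figure D4:**
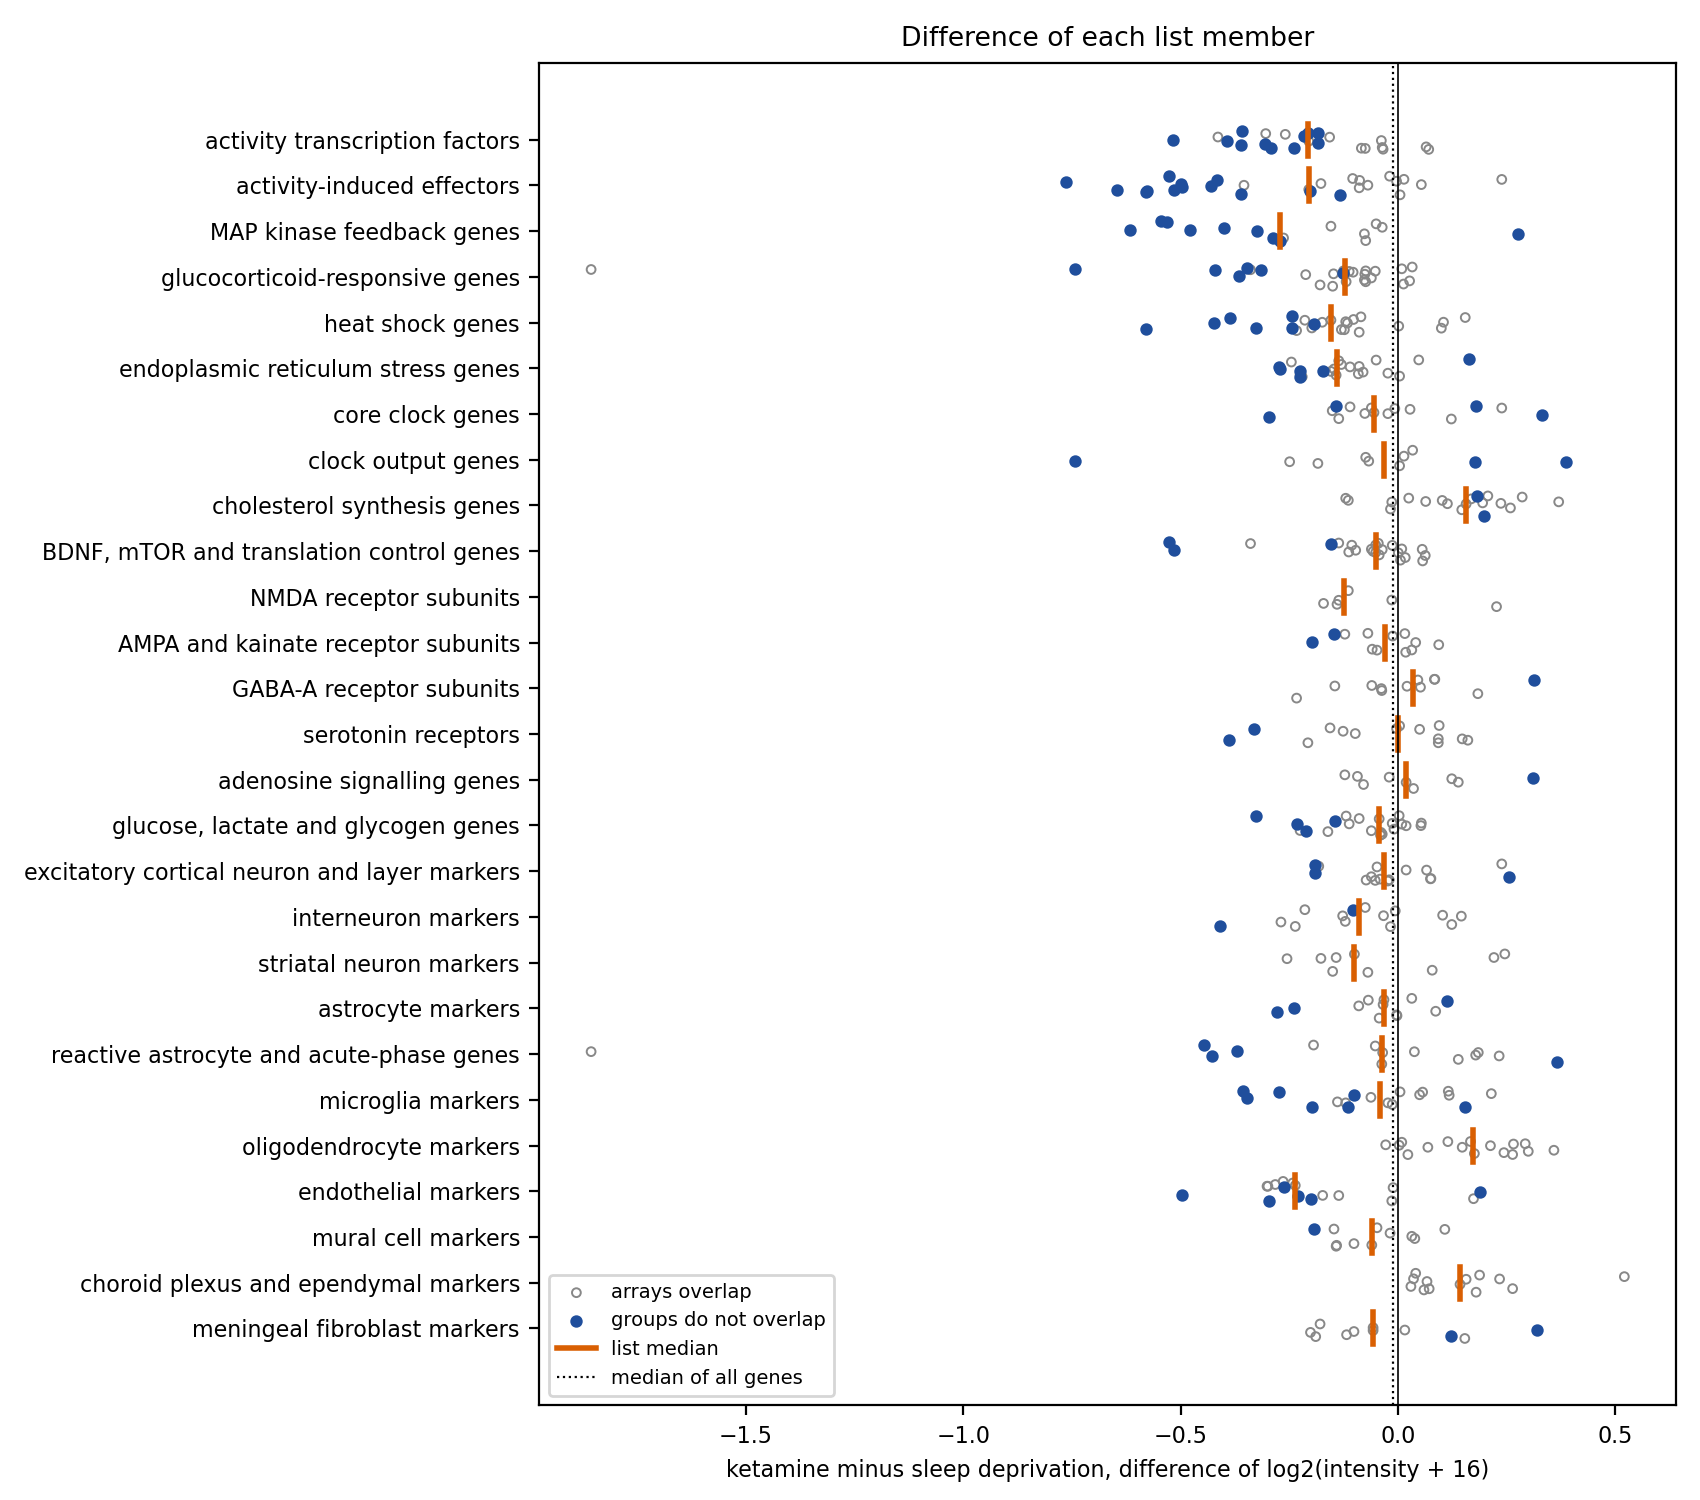
Difference of each measured list member, ketamine minus sleep deprivation on the scale of log2(intensity + 16), with 1 point per gene. Filled points have arrays that do not overlap between the groups of 3, orange bars mark list medians and the dotted line the median of all genes. Among lists with more than 1 measured member, medians furthest to the left are those of MAP kinase feedback genes (-0.27), endothelial markers (-0.24) and both activity lists, and those of oligodendrocyte markers (0.17) and cholesterol synthesis (0.16) are furthest to the right.

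Genes leading in the other direction, higher after ketamine, were mostly not on any gene list, with Dbp as the 1 member of a list. The 15 had differences between 0.34 and 0.75, with adjusted p between 0.335 and 0.397, and the arrays of 14 did not overlap. Myog, the muscle transcription factor myogenin, read 101, 99 and 139 after sleep deprivation, 161, 166 and 182 after ketamine and 129, 111 and 142 after saline (0.54 ± 0.12). Sleep-deprived array 3 lay within the saline range, and the ketamine arrays above all. Hrh3, coding for the histamine receptor that restrains transmitter release, read 955, 949 and 773 against 1028, 1212 and 1215, with saline at 1045, 1021 and 1082 (0.36 ± 0.11). A dimmer second probe set of Hrh3 differed by 0.089.

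Among the rest were genes with known roles outside neurons. Zc3h12a, whose product degrades mRNA of inflammatory genes, was at 0.35 ± 0.10, the helicase gene Ddx11 at 0.41 ± 0.12, Baiap2l2 at 0.36 ± 0.10, Dppa5a at 0.37 ± 0.10 and the zinc-finger gene Zfp469 at 0.34 ± 0.11. Mip, which codes for the water channel of the lens, was at 0.45 ± 0.14, and the locus Mir449c at 0.34 ± 0.10. The immunoglobulin genes Ighm (0.38 ± 0.12) and Igkv5-43 (0.44 ± 0.13) had probe sets that differed in sign among themselves, and members of these families can share signal. Gm16677 (0.75 ± 0.21), 1700049E15Rik (0.39 ± 0.11) and 9330159M07Rik (0.35 ± 0.10) complete the group, and the arrays of Gm16677 overlapped. Dimmer second probe sets of Mip and Gm16677 differed by 0.164 and 0.225. For 11 of the 15 genes sleep-deprived array 3 was the highest of its group.

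MicroRNA loci are read here by probe sets that were not matched to a mature strand. The 4 loci with the smallest p were all lower after ketamine and all dim, with intensities of at most 73.5. Their mature strands in RefSeq (GRCm38.p6) are shown for their seeds, bases 2 to 8 in capitals, which choose the targets of a microRNA:

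mmu-miR-29a-3p: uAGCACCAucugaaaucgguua
mmu-miR-29a-5p: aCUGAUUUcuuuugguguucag
mmu-miR-582-5p: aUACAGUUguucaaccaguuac
mmu-miR-582-3p: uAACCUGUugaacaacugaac
mmu-miR-452-5p: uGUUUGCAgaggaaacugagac
mmu-miR-452-3p: uCAGUCUCaucugcaaagaggu
mmu-miR-880-5p: uACUCAGAuugauaugaguca
mmu-miR-880-3p: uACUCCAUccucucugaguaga

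The seed of miR-29a-3p is shared by 4 mature entries in the table, those of Mir29a, Mir29b-1, Mir29b-2 and Mir29c, and no other seed shown here is shared. Mir29a, on chromosome 6, read 46.4, 73.5 and 58.2 after sleep deprivation, 31.8, 25.6 and 35 after ketamine and 23.5, 22 and 21.5 after saline. All sleep-deprived arrays were above all ketamine arrays, which were above all saline arrays (-0.68 ± 0.12, adjusted p = 0.215). Mir582, on chromosome 13, read 35.4, 26.1 and 27.2 against 16.9, 11.4 and 12.5, with saline at 19.3, 14.6 and 13.2 (-0.62 ± 0.11).

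The other loci lie on the X chromosome. Mir452 read 31.8, 24.8 and 27.5 after sleep deprivation and 15.7, 14.8 and 17.8 after ketamine, with saline at 27.6, 21.7 and 23.3, so that saline overlapped sleep deprivation (-0.46 ± 0.10). Mir880 was the dimmest, at 19.1, 10.5 and 15.1 against 5, 7 and 7.3 (-0.46 ± 0.11), below the offset of 16 on most arrays. Such dim values depend on the offset: the difference of Mir880 was -1.08 with an offset of 1 and -0.16 with an offset of 64, and that of Mir582 was -1.08 and -0.27. Mir452 was at -0.76 and -0.20 with these offsets, and Mir29a at -0.91 and -0.38.

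Markers of cell types were compared to see whether the tissue taken differed between groups. In bulk tissue, fewer cells of a type and less RNA per cell cannot be told apart. The defining marker of excitatory neurons, Slc17a7, was bright and level, with 2700.0, 2840.4 and 2692 after sleep deprivation and 2811, 2965 and 2846 after ketamine (0.07 ± 0.09). The astrocyte marker Aqp4 was at 0.03 ± 0.12, the microglia marker Cx3cr1 at 0.06 ± 0.09, the interneuron marker Gad1 at 0.10 ± 0.12, the myelin marker Mbp at 0.009 ± 0.15, the fibroblast marker Col1a2 at 0.016 ± 0.10 and the striatal marker Drd2 at -0.10 ± 0.09. Drd2 was dim, at 88.9, 88.7 and 86.7 on the ketamine arrays. Aqp4, Gad1, Mbp and Col1a2 changed sign under some alternatives.

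Endothelial markers were mostly lower after ketamine. Of 17 measured 15 were lower after ketamine, with a median of -0.24 (-0.19 after quantile normalization, with 14 lower). At an unadjusted p under 0.05, 9 were lower (52.9%, beside 4.37% of all genes) and 0 higher, with 0 adjusted calls. Their summed intensity ran from 3730 to 4398 on the ketamine arrays, 4476 to 4545 on the sleep-deprived arrays and 4030 to 4570 on the saline arrays. Vwf, coding for von Willebrand factor, read 228, 162 and 202 after sleep deprivation against 145, 126 and 132 after ketamine and 155, 136 and 139 after saline (-0.50 ± 0.12, adjusted p = 0.335). Pecam1, a junction protein gene, was at -0.26 ± 0.09, Eng, a co-receptor of TGF-beta, at -0.30 ± 0.11, the VEGF receptor gene Flt1 at -0.28 ± 0.10 and the tight junction gene Cldn5 at -0.30 ± 0.11. Mural cell markers were at -0.06 with 8 of 11 lower (-0.06 after quantile normalization). The part of vessels in the differences of Slc2a1, Adamts1, Cdkn1a and the glucocorticoid list was not tested.

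Oligodendrocyte markers were higher after ketamine in 15 of 16, with a median of 0.17 (0.19 after quantile normalization), but 0 had an unadjusted p under 0.05. Their summed intensity ranged from 5688 to 9837 on the ketamine arrays, 5757 to 7239 on the sleep-deprived arrays and 6512 to 7901 on the saline arrays. The width came from within the ketamine group, where the list's median was 0.011, 0.44 and -0.27 on arrays 1 to 3 against the saline mean. Without ketamine array 2 the list's median was -0.006, with 8 of 16 lower, without ketamine array 3 it was 0.34, and without sleep-deprived array 1 it was 0.09. Mog, a myelin surface protein gene, read 184, 275 and 287 after sleep deprivation and 313, 439.8 and 231 after ketamine (0.36 ± 0.19), and Cldn11 was at 0.27 ± 0.18. Their part in the higher cholesterol genes was not tested, though the cholesterol list's median without ketamine array 2 was 0.14.

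Choroid plexus and ependymal markers were higher in 13 of 13, with a median of 0.14 (0.06 after quantile normalization, 2 lower). Without sleep-deprived array 2 the median was 0.04, with 4 of 13 lower, and without ketamine array 3 it was 0.095, with 3 lower. Ttr, the transthyretin gene that marks this tissue, ranged widely within groups, at 89.5, 104 and 428 after sleep deprivation, 207, 467 and 138 after ketamine and 1624, 8428 and 109.5 after saline (0.52 ± 1.06). Summed intensity of the list was 1355 to 1690 after ketamine, 1067 to 1728 after sleep deprivation and 1274 to 10197 after saline. At an unadjusted p under 0.05, 1 member was higher, Aqp1 at 0.23 ± 0.10 (7.69% of the list, near the 5.1% of all genes).

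Markers of microglia were at -0.04 with 11 of 18 lower (-0.007 after quantile normalization, with 9 lower). C1qb, part of the complement recognition complex, read 570.4, 542 and 552 after sleep deprivation against 443, 449 and 399.5 after ketamine (-0.36 ± 0.10). Fcrls was at -0.35 ± 0.10 and the integrin gene Itgam at -0.27 ± 0.10, while Trem2, a lipid receptor gene of the same cells, was at 0.15 ± 0.09.

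Astrocyte markers were at -0.03 with 9 of 12 lower, and turned to 0.02 with 5 of 12 lower after quantile normalization. Gjb6, coding for a gap junction protein, was at -0.28 ± 0.11 and Fgfr3 at -0.24 ± 0.10. Excitatory and layer markers were at -0.03 with 10 of 16 lower, and at 0.014 with 4 of 16 lower after quantile normalization. Etv1, a marker of layer 5, read 1211, 1209 and 1118 after sleep deprivation, 1423, 1488 and 1323 after ketamine and 1360.2, 1559 and 1494 after saline (0.26 ± 0.09), with sleep deprivation below both other groups.

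Of 14 interneuron markers 11 were lower, with a median of -0.09. After quantile normalization 8 of 14 were lower, with a median of -0.018. On the values as deposited the median was -0.03 without sleep-deprived array 2 and likewise -0.03 without ketamine array 3. Vip, the peptide gene of a class that inhibits other interneurons, read 745, 911 and 751 after sleep deprivation, 657, 534 and 609 after ketamine and 730.1, 700.0 and 765 after saline. Ketamine arrays were the lowest of all 9, and saline overlapped sleep deprivation (-0.41 ± 0.11, adjusted p = 0.374). Pvalb, of fast-spiking cells, was at -0.21 ± 0.13, Calb2 at -0.27 ± 0.13, the stress peptide gene Crh at -0.24 ± 0.11 and Sst at 0.15 ± 0.10. Of 9 striatal markers, a sign of tissue below the cortex, 6 were lower (median -0.10), as were 7 of 11 meningeal markers (median -0.06).

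**Figure D5:**
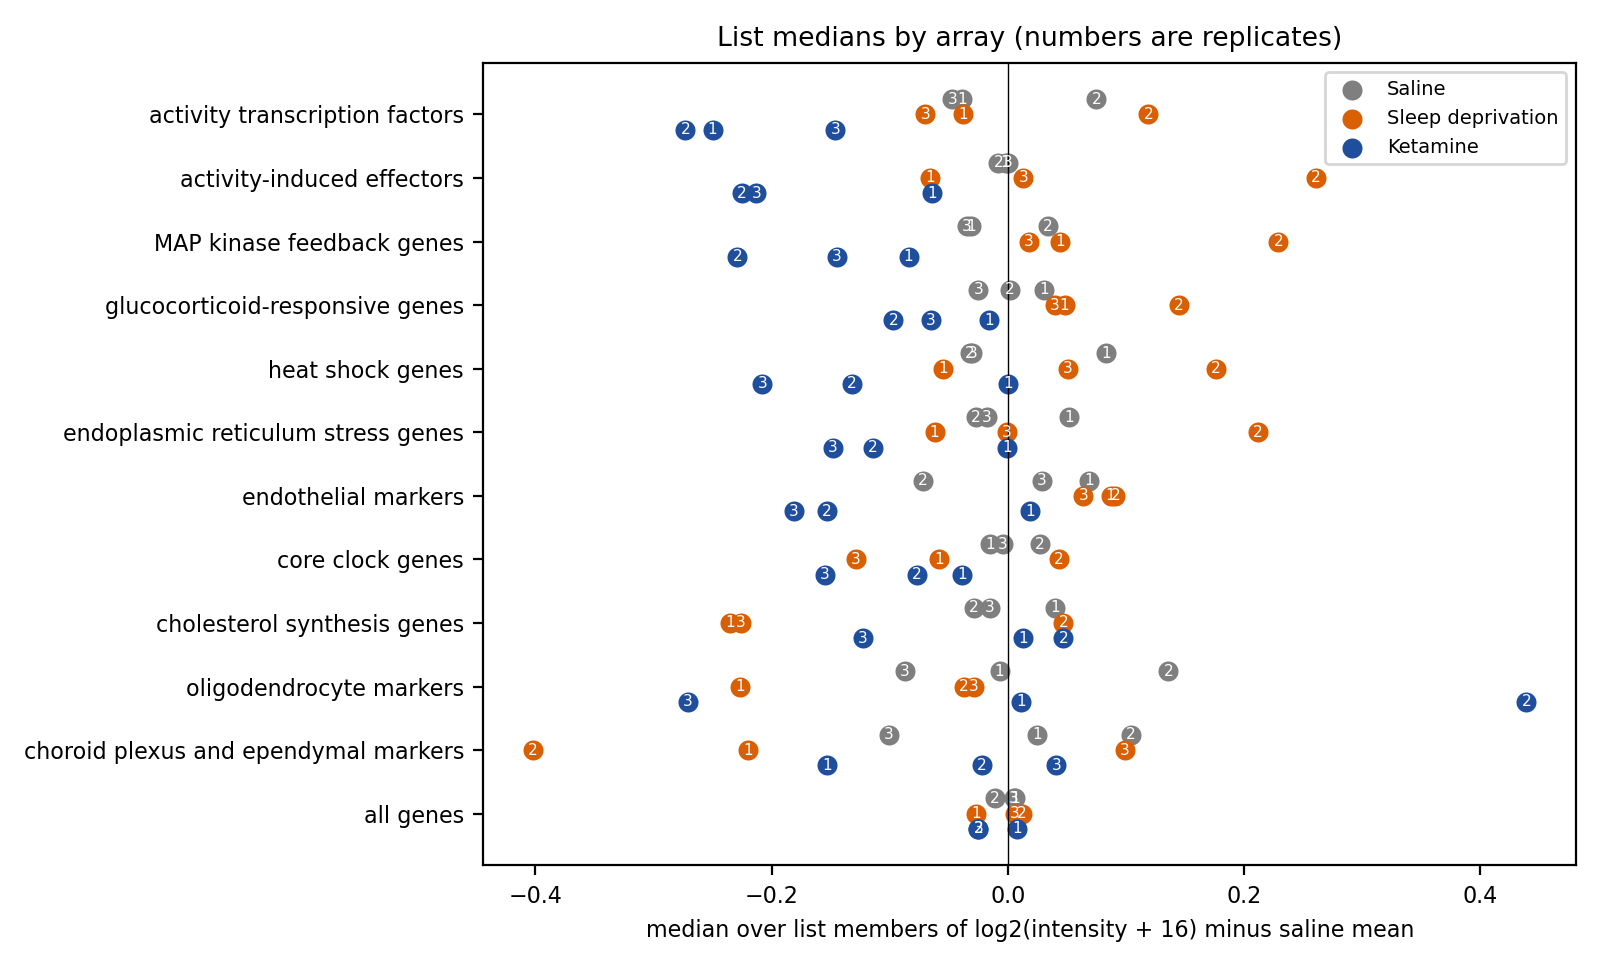
Median over list members of log2(intensity + 16) minus the gene's saline mean, for each of the 9 arrays, with the replicate number in each point. Ketamine arrays lie left of the sleep-deprived arrays for both activity transcription factors and MAP kinase feedback genes, sleep-deprived array 2 is the highest of its group in the activity, chaperone and cholesterol lists, and ketamine array 2 stands apart for oligodendrocyte markers.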

How the data were processed

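Total RNA of microdissected anterior cingulate cortex was hybridised to 9 Affymetrix arrays. The deposited table holds 41345 probe sets as linear intensity, made by the authors with Expression Console 1.1.1 and PLIER 2.0 per the submitters' processing notes. The normalization between arrays is not given in the sources used here. The log2 values, log2(intensity + 16), were computed here from the authors' deposited intensities.

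Of the probe sets, 23521 had 1 gene symbol in the platform annotation, 1814 had several and 16010 had none, and 23328 matched RefSeq names. Where a gene had several probe sets (1082 genes) the brightest was used. All 9 arrays entered 1 limma fit (limma 3.58.1, R 4.3.3; lmFit, contrasts.fit and eBayes, 6 residual degrees of freedom), with Benjamini-Hochberg adjustment over 22180 genes at 0.05. The fit was tested on simulated data. No 2 arrays were identical, and the number of arrays limits the precision.

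Named genes were, in each direction, 15 by the smallest p among genes above the median level, 5 by p from each list, every core clock, NMDA receptor and cold-inducible gene, 4 microRNA loci and a set of defining markers. Members and lists were chosen with earlier results of these data known. Of 454 genes listed, 14 were on more than 1 list, so results of different lists are not fully separate. Erythrocyte markers were not analysed here.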

Additional observations from a re-analysis of the deposited data

How the results depend on the processing

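The count of 0 genes past an adjusted p of 0.05 also held at a threshold of 0.1, after quantile normalization, after centring each array, with an offset of 1, with the mean of a gene's probe sets, and with only the 6 treated arrays in the fit. It was 5 without the dimmest genes, 14 with an offset of 64, 15 with limma-trend and 42 with array weights, where ketamine array 2 took a weight of 7.93 and the other arrays at most 2.08. Among these calls 4 of the 5, 13 of the 14, 13 of the 15 and 9 of the 42 were among the 15 leading genes lower after ketamine. Leaving out 1 array gave 0 to 214 calls, and 14 of the 15 leading genes were among the 214 found without sleep-deprived array 3. Without that array the count at an unadjusted p under 0.05 was 4762 (1839 lower and 2923 higher), and without ketamine array 3 it was 1109 (556 lower and 553 higher). With array weights it was 4150 (1990 lower and 2160 higher), and without the dimmest genes 570 were higher. Leaving out ketamine array 3 and sleep-deprived array 2 together, the pair of arrays that correlated least, was chosen after seeing the data and gave 1 call, Lcn2, and 1394 genes at an unadjusted p under 0.05, of which 576 were higher.

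Whether the replicate numbers pair the arrays cannot be told with 3 arrays in each group. Deviations from the group means correlated at -0.189, 0.052 and 0.444 for numbers 1, 2 and 3. For unlike numbers the correlations ran from -0.514 to 0.536. With the replicate block 0 genes passed, with a smallest limma adjusted p of 0.119. At an unadjusted p under 0.05, 1035 were lower and 1422 higher with it.

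Of the 28 list medians, those of both activity lists, MAP kinase feedback, glucocorticoid, heat shock, endoplasmic reticulum, NMDA receptor and endothelial genes stayed below 0, and that of cholesterol synthesis above 0, under all 20 alternatives. Their sizes moved more: the medians ran from -0.259 to -0.125 for activity transcription factors, -0.336 to -0.14 for effectors, -0.302 to -0.215 for MAP kinase feedback, -0.192 to -0.047 for heat shock, -0.205 to -0.035 for endoplasmic reticulum and -0.302 to -0.156 for endothelial genes, and from 0.098 to 0.251 for cholesterol synthesis. Choroid plexus and ependymal markers (0.015 to 0.213) and the cold-inducible gene Cirbp (0.249 to 0.633) also stayed above 0. Microglia (-0.067 to -0.007), mural cell (-0.115 to -0.006) and striatal markers (-0.168 to -0.01) also stayed below 0. Quantile normalization gave 0.022 for core clock genes, 0.045 for clock output genes, 0.049 for adenosine signalling, 0.014 for excitatory markers and -0.069 for glucocorticoid-responsive genes. Without the dimmest genes adenosine signalling was at -0.02 and acute-phase genes at -0.194. Array weights gave 0.53 for oligodendrocyte, -0.022 for striatal, -0.006 for mural and 0.014 for excitatory markers. Without the pair of arrays the medians were 0.024 for the BDNF and mTOR list, -0.156 for endothelial, 0.014 for excitatory, 0.037 for interneuron and -0.027 for meningeal markers, and -0.063 for NMDA receptor subunits. Leaving out 1 array moved adenosine signalling between -0.01 and 0.049, excitatory markers between -0.066 and 0.022, glucocorticoid-responsive genes between -0.15 and -0.067, meningeal markers between -0.124 and 0.038, mural markers between -0.115 and -0.031, and striatal markers between -0.168 and -0.01.

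Of 137 genes named, 125 kept their sign throughout. The others turned as follows. After quantile normalization Bhlhe40 was at 0.032, Cry2 at 0.022, Fos at 0.039, Grin3a at 0.073 and Per3 at 0.065, and with array weights Grin3a was at 0.006. Without the pair of arrays Bhlhe40 was at 0.047, Col1a2 at -0.061, Cry1 at 0.015, Grin3a at 0.111, Npas4 at -0.049 and Per3 at 0.064. Over the fits that left out 1 array, Aqp4 ran from -0.051 to 0.144, Bhlhe40 from -0.053 to 0.067, Col1a2 from -0.048 to 0.093, Cry1 from -0.126 to 0.004, Cry2 from -0.115 to 0.009 and Fos from -0.103 to 0.01. Likewise Gad1 ran from -0.046 to 0.233, Grin3a from -0.116 to 0.083, Mbp from -0.183 to 0.149, Npas4 from -0.044 to 0.192, Nr1d2 from -0.01 to 0.097 and Per3 from -0.101 to 0.031. The cause of these turns was not tested. The number of arrays limits every value, and dim genes rest on the offset.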
